A study of Homo sapiens with 4 samples.

Results

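RAB proteins are small GTPases that give each membrane compartment its identity and steer vesicles between compartments. The RAB genes were taken as the protein-coding genes whose whole symbol is RAB followed by digits and an optional letter, and 61 of the 25702 genes counted met this rule. The cells were K562, an established human line that grew from a chronic myeloid leukemia, and the 2 groups received either LeGO-iG2-RUNX1::ERG or LeGO-iG2 without an insert, with 2 replicates each and no other treatment. Both plasmids also carry green fluorescent protein, and the methods describe no sorting of transfected cells before RNA extraction, so each library may mix transfected and untransfected cells. The paper reports that its K562 transfection protocol reached most cells, as judged by green fluorescent protein, but gives no value for these libraries. RUNX1::ERG joins the DNA-binding parts of the transcription factors RUNX1 and ERG, and the comparison asks which transcripts differ when it is expressed. Poly(A)-enriched RNA was sequenced and counted per gene.

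A RAB protein is active when bound to GTP, and it then recruits effectors such as motors, tethers and docking factors. Exchange factors load it with GTP, GTPase-activating proteins (GAPs) switch it off, and GDP dissociation inhibitors (GDIs) carry the lipid-modified inactive form through the cytosol between membranes. In megakaryocytes and platelets, RAB27A and RAB27B act in docking and release of granules, RAB32 and RAB38 deliver cargo to dense granules, and RAB3B, RAB4A, RAB8A and RAB11A have been linked to secretion or to recycling of membrane. These 8 are called platelet granule RABs here.

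Library totals ran from 59695387 to 82352144 counts, and 3 counts, the limit that a count of 0 allows, came to between 0.0364 and 0.0503 CPM (counts set to the same library total), for counting error only. ERG had 4 counts in each empty vector library, 80443 in RUNX1::ERG replicate 1 and 27218 in replicate 2, so the fusion transcript was present as labelled and more abundant in replicate 1. Levels are CPM scaled by edgeR's TMM factors, and a gene was called when its adjusted p was under 0.05 in the quasi-likelihood test of edgeR, adjusted by the Benjamini-Hochberg method over all 15394 genes tested. With 2 libraries per group, 0.333 is the smallest p that an exact permutation test (two-sided) can reach, so each call uses a spread that edgeR moderates over genes. The labels do not say how far the replicates are independent. The paper calls them biological replicates, without saying whether they came from separate transfections. The p-values measure only the spread between these samples. The summed level of 12 megakaryocyte and platelet markers was 74.4 and 85.2 CPM with the empty vector and 495 and 433 CPM with RUNX1::ERG. Of the 7 markers that could be tested, 6 were called higher, while GP1BB, a subunit of the platelet von Willebrand factor receptor, had no counts in any library. All exon bases of GP1BB are shared with other gene models on its strand, among them SEPTIN5, and how reads there were assigned is not given, so its 0 cannot be read as absence of the transcript. In bulk RNA, a change in the share of cells of a kind and a change in RNA per cell cannot be told apart.

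Of the 61 RAB genes, 51 passed the filter on low counts. RAB27B, RAB32 and RAB13 were called higher with RUNX1::ERG, RAB27A was called lower and 47 were not called. Over all genes tested, 3.64% were called higher and 1.15% lower, and a count of 3 higher and 1 lower among 51 is close to this background. Without RUNX1::ERG replicate 1 only RAB27B was called, without empty vector replicate 1 no RAB was called lower, and without empty vector replicate 2 there were 2 called lower. At an unadjusted p under 0.05 (edgeR) there were 9 higher and 2 lower of these 51, beside 1649 higher and 1118 lower of 15394. The log2 fold change was above 0 in 37 of the 51 genes and its median was 0.26, beside a median of 0.00 over all genes tested. Both RUNX1::ERG libraries lay above both empty vector libraries for 29 RAB genes, or 56.9% of those tested, where 25.1% of all genes tested did so. They lay below for 5 RAB genes, or 9.80%, where 22.1% of all genes tested did so. Many RAB transcripts were thus slightly higher in both RUNX1::ERG libraries, by amounts that did not pass the test gene by gene. RAB genes named here that were not called, are not platelet granule RABs and are not among the 10 most abundant were chosen after their values were seen.

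**Figure D1:**
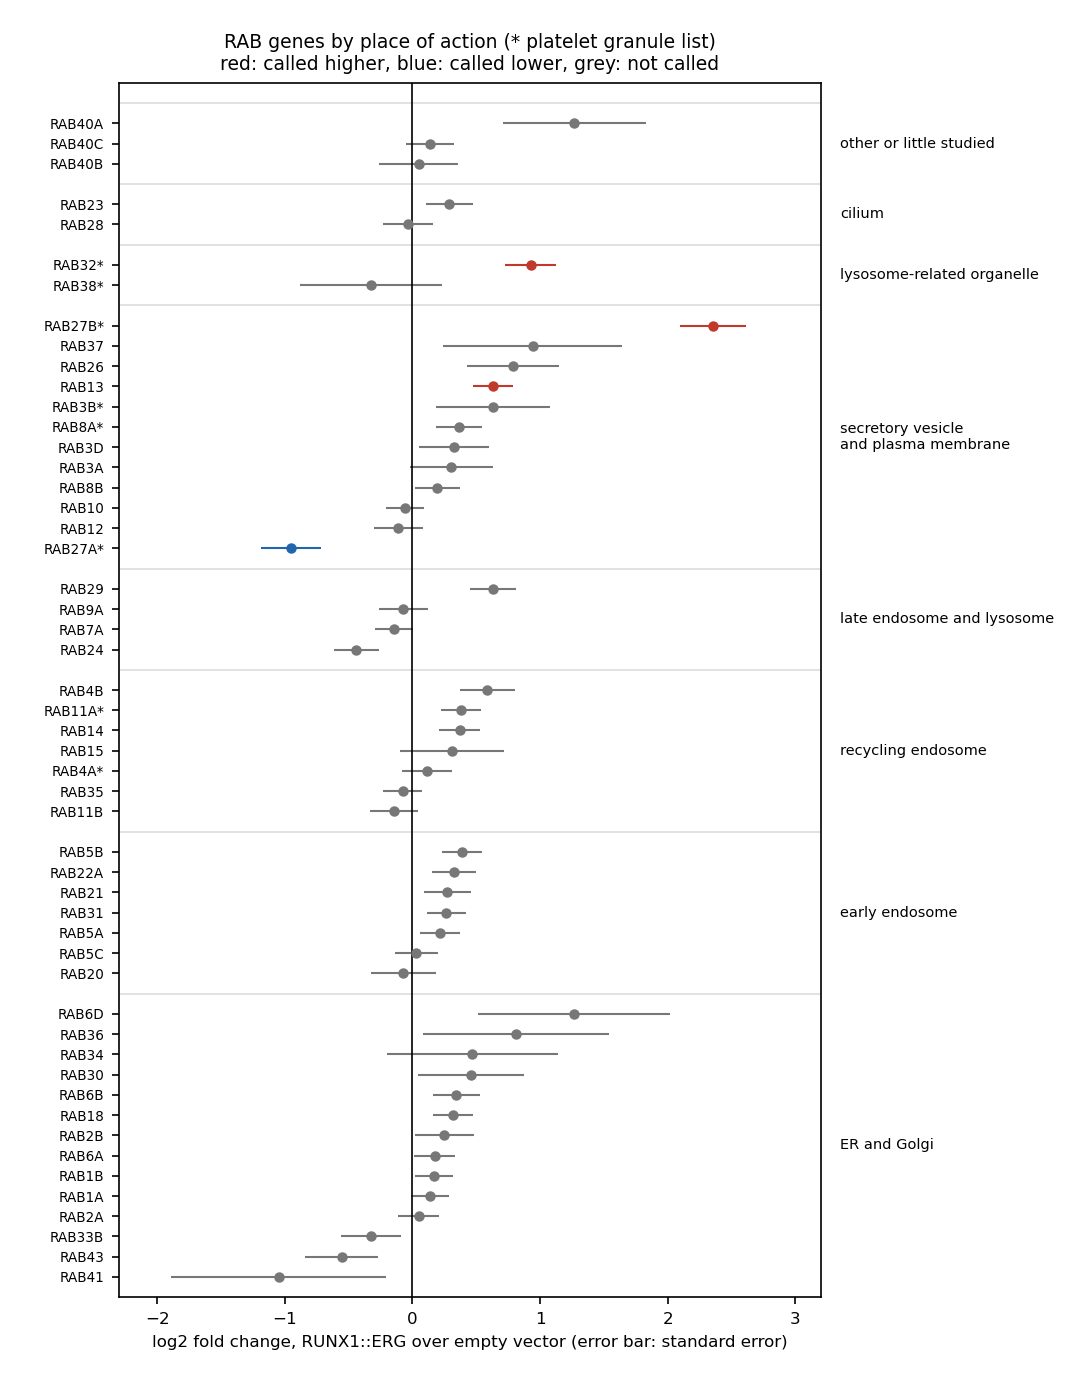
Log2 fold change (RUNX1::ERG over empty vector, x axis) of the 51 RAB genes tested, with bars of 1 standard error from edgeR, grouped by the compartment each protein is best known for. Most points lie to the right of 0, with a median of 0.26, and the largest called value is that of RAB27B at 2.36.

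The clearest difference was in RAB27B, a member of the RAB27 pair, whose proteins dock secretory granules at the plasma membrane. RAB27B (NCBI gene 5874) lies on the plus strand of chromosome 18, from 52385091 to 52562747 on GRCh37. Its level was 2.74 and 2.27 CPM in the empty vector libraries and 11.6 and 14.1 CPM in the RUNX1::ERG libraries. The groups did not overlap, and the lowest RUNX1::ERG value was several times the highest empty vector value. RAB27B rose 5.12-fold in mean level, from 2.50 ± 0.33 to 12.8 ± 1.8 CPM (SD, n = 2 each), with a log2 fold change of 2.36 ± 0.26 (SE) and an adjusted p of 0.00054 from edgeR. Counts were 165 and 160 with the empty vector and 977 and 1011 with RUNX1::ERG, so the fold does not rest on a few reads. The call stood in each of the 12 alternative analyses, and leaving out each library in turn gave log2 fold changes from 2.2 to 2.5.

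RAB27A (NCBI gene 5873), the close relative of RAB27B that is mutated in Griscelli syndrome, lies on the minus strand of chromosome 15, from 55495164 to 55611311. Its level was 271 and 153 CPM with the empty vector and 103 and 116 CPM with RUNX1::ERG. RUNX1::ERG libraries were the lower ones without overlap, but the 2 empty vector libraries stood farther apart from each other than the nearer of them stood from RUNX1::ERG. RAB27A fell from 212 ± 83 to 110 ± 9 CPM (SD, n = 2 each), a log2 fold change of -0.95 ± 0.23 (SE) with an adjusted p of 0.046 from edgeR. This call depended on the analysis. It was lost with scaling by library totals (log2 fold change -0.92, adjusted p = 0.075) and with limma voom (-0.89, adjusted p = 0.064), without empty vector replicate 1 (-0.49, adjusted p = 0.18) and without RUNX1::ERG replicate 1 (-0.87, adjusted p = 0.15).

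Levels of the pair can be set side by side per kilobase of the reference (MANE Select) transcript. RAB27A stood at 78.6 and 44.5 CPM per kb with the empty vector and at 30.0 and 33.6 with RUNX1::ERG. RAB27B stood at 0.391 and 0.324 CPM per kb with the empty vector and at 1.65 and 2.01 with RUNX1::ERG. RAB27B therefore made up 0.495% and 0.723% of the pair's summed level in the empty vector libraries and 5.23% and 5.63% in the RUNX1::ERG libraries. RAB27A remained the more abundant transcript in every library, and the summed level of the pair was 79.0 and 44.8 CPM per kb with the empty vector against 31.7 and 35.7 with RUNX1::ERG. The groups overlapped for neither gene, with RAB27B the higher and RAB27A the lower in both RUNX1::ERG libraries. The megakaryocyte and platelet markers given above moved in the same libraries as RAB27B, and their part in this result was not tested.

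**Figure D2:**
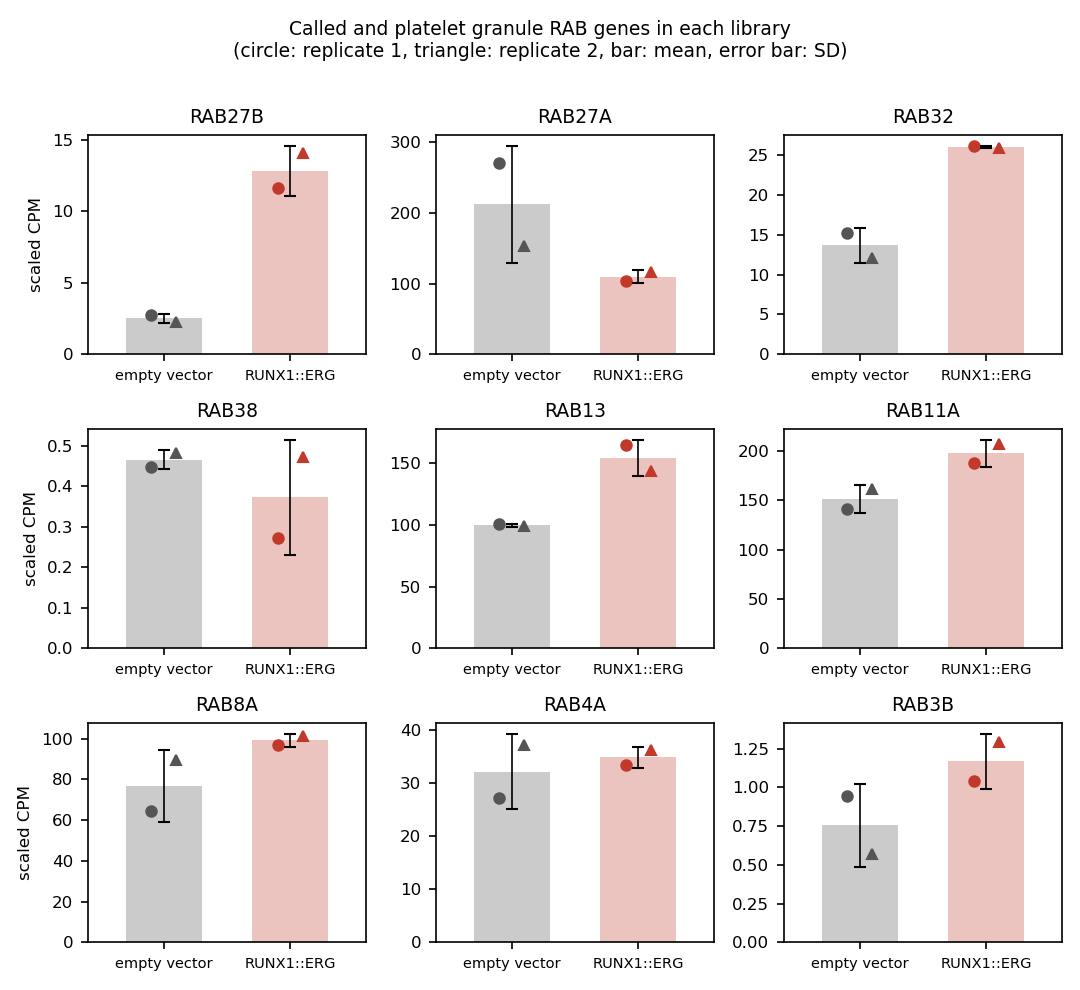
Scaled CPM (y axes, linear, each from 0) of the 8 platelet granule RABs and RAB13 in each library (circle for replicate 1, triangle for replicate 2), with bars for the group mean and error bars for the SD (n = 2). RAB27B, RAB32 and RAB13 are higher in both RUNX1::ERG libraries and were called. RAB11A, RAB8A and RAB3B are also higher in both but were not called. The RAB27A panel shows empty vector replicate 1 at 271 CPM, far from replicate 2 at 153 CPM.

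RAB32, which directs cargo to lysosome-related organelles such as melanosomes and platelet dense granules, was the other platelet granule RAB called higher. RAB32 (NCBI gene 10981) lies on the plus strand of chromosome 6, from 146864969 to 146876089, and none of its exon bases are shared with another gene model. It was at 15.3 and 12.1 CPM with the empty vector and at 26.1 and 25.9 CPM with RUNX1::ERG, without overlap. Its mean rose 1.90-fold, with a log2 fold change of 0.93 ± 0.20 (SE) and an adjusted p of 0.026 from edgeR. Without RUNX1::ERG replicate 1 the size was the same (0.92) but the adjusted p was 0.11, and the call stood without each of the other libraries. RAB38, its close relative with an overlapping role in the same organelles, was far less abundant at 0.448 and 0.482 CPM with the empty vector and 0.273 and 0.473 CPM with RUNX1::ERG, and the groups overlapped (log2 fold change -0.32 ± 0.56, adjusted p = 0.83, edgeR). Per kilobase, RAB38 made up 2.14% and 2.88% of the pair with the empty vector and 0.770% and 1.34% with RUNX1::ERG, so RAB32 was the main transcript of the pair throughout.

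The other platelet granule RABs were not called. RAB11A, the recycling endosome RAB, was at 141 and 161 CPM with the empty vector and 187 and 207 CPM with RUNX1::ERG (log2 fold change 0.38 ± 0.16, adjusted p = 0.22, edgeR). RAB8A, which serves transport to the plasma membrane, was at 64.5 and 89.3 CPM against 96.8 and 101 CPM (0.37 ± 0.18, adjusted p = 0.33), and 47.7% of its exon bases are shared with other gene models. Both had RUNX1::ERG libraries above the empty vector libraries, by less than the test could call. RAB3B, a RAB of regulated secretion, was near the low end at 0.946 and 0.567 CPM against 1.04 and 1.29 CPM (0.63 ± 0.45, adjusted p = 0.53). RAB4A, which acts in fast recycling, was at 27.1 and 37.2 CPM against 33.4 and 36.3 CPM, and the groups overlapped (0.12 ± 0.20, adjusted p = 0.83). In all, 2 of the 8 platelet granule RABs were called higher, 1 was called lower and 5 were not called, where 3.64% of all genes tested were called higher and 1.15% lower, and the median log2 fold change was 0.37. The list was written with earlier results of these data known, so its count beside these shares is a description and no test. The list is small and holds RAB27A and RAB27B in opposite directions, so its median describes neither. Without RUNX1::ERG replicate 1, RAB27B was the only call in it.

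RAB13 was the remaining call. It is a RAB of traffic between the trans-Golgi network, recycling endosomes and the cell surface, best known from epithelial junctions. RAB13 (NCBI gene 5872) lies on the minus strand of chromosome 1, from 153954093 to 153958834. Its level was 101 and 98.7 CPM with the empty vector and 165 and 144 CPM with RUNX1::ERG, without overlap. It rose 1.55-fold (log2 fold change 0.63 ± 0.16, adjusted p = 0.046, edgeR). The call was lost without RUNX1::ERG replicate 1 (0.53, adjusted p = 0.27), without empty vector replicate 1 (0.64, adjusted p = 0.063) and without empty vector replicate 2 (0.61, adjusted p = 0.079). An unnamed gene model on the same strand shares 58.6% of the exon bases of RAB13, and how reads there were assigned is not given in the sources used here.

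RUNX1::ERG keeps both a Runt and an Ets DNA-binding domain, so the promoters of the 3 genes called higher are printed here from RefSeq on GRCh38.p14, each as the 250 bases before the start of the reference transcript, 5′ to 3′ on the gene's strand. Capitals mark exact matches to AGGAAG or CGGAAG (Ets strings) and to TGTGGT or TGCGGT (Runt core letters), searched on both strands. The Ets strings are longer than the Ets core GGAA, which was not marked on its own. RAB27B is at chr18:54828227-54828476 on the plus strand, RAB32 at chr6:146543583-146543832 on the plus strand and RAB13 at chr1:153986340-153986589 on the minus strand.
RAB27B: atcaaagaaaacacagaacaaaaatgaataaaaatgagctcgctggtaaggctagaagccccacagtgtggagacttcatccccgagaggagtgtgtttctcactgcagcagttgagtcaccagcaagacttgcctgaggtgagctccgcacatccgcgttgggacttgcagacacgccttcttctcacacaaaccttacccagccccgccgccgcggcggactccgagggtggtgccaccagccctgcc
RAB32: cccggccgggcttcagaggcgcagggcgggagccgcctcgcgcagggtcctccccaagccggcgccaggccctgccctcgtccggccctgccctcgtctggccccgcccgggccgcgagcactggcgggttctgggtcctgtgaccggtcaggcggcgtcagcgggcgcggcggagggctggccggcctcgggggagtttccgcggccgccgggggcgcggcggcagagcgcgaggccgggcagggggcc
RAB13: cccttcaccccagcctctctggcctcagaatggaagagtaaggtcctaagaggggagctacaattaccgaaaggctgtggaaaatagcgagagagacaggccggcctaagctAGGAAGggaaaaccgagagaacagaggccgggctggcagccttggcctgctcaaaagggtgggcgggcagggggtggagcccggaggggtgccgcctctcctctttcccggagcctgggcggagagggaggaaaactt
RAB13 held 1 match, to AGGAAG, ending 132 bases before the start, and RAB27B and RAB32 held none of these strings. RAB27B and RAB13 each have another listed start, not printed, with none of these strings before it. In RAB27B and RAB32, G and C made up 56% and 82% of the window, and in RAB13 61.2%. Promoters were found for 49 of the 61 RAB genes, 69 in all. Of these 31.9% held an Ets match, 14.5% a Runt match and 5.80% both, where the 35116 promoters of the same length in the whole table gave 40.8%, 16.3% and 6.55%. The shares before RAB genes were thus not above those before all genes, and a window with no match says nothing of binding there or elsewhere. RAB27A has 5 starts in the table, none of them that of its reference transcript, so it is not printed. Some of these starts had Ets matches before them, others had Runt matches and another had neither. Gene counts do not tell which start was used.

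Among the RABs of the endoplasmic reticulum (ER) and Golgi, which carry proteins through the early secretory pathway, none of the 14 tested of 19 members was called. Their log2 fold changes ran from -1.05 to 1.26 with a median of 0.21, and both extremes belonged to genes under 1 CPM (RAB41 and RAB6D). RAB1B and RAB1A, which act in transport from the ER to the Golgi, were among the most abundant RABs. RAB1B was at 249 and 251 CPM with the empty vector and 294 and 268 CPM with RUNX1::ERG (0.17 ± 0.15, adjusted p = 0.62, edgeR), and RAB1A at 154 and 157 CPM against 170 and 173 CPM (0.14 ± 0.15, adjusted p = 0.71). RAB6D and RAB6C are near-identical copies of RAB6A, so their few counts are uncertain.

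Early endosome RABs, which govern sorting of newly internalised cargo, gave log2 fold changes from -0.07 to 0.39, with 5 of 7 genes not overlapping and higher with RUNX1::ERG (25.1% of all genes tested), and none called. RAB5C, 1 of 3 RAB5 genes that drive early endosome fusion, was at 120 and 152 CPM against 142 and 137 CPM (0.03 ± 0.17, adjusted p = 0.96, edgeR), and RAB31 was at 117 and 121 CPM against 136 and 150 CPM (0.26 ± 0.15, adjusted p = 0.42). Among the recycling RABs, 7 of 9 members were tested and none was called, with a median of 0.31. RAB35, which acts in fast recycling to the cell surface, was at 127 and 142 CPM against 133 and 121 CPM (-0.08 ± 0.16, adjusted p = 0.86). RAB4B was at 15.3 and 12.8 CPM against 23.8 and 18.4 CPM (0.59 ± 0.21, adjusted p = 0.17), but all of its exon bases are also part of the readthrough genes MIA-RAB4B and RAB4B-EGLN2.

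Late endosome and lysosome RABs were the only set of 4 or more tested genes with a median below 0 (-0.11, 4 of 5 members tested, none called). RAB7A, the main RAB of late endosomes, was at 227 and 243 CPM with the empty vector and 207 and 218 CPM with RUNX1::ERG (-0.14 ± 0.15, adjusted p = 0.69, edgeR). RAB29, a partner of the kinase LRRK2 at lysosomes and the trans-Golgi, differed from that pattern with 20.9 and 24.3 CPM against 34.7 and 35.1 CPM. The RAB29 groups did not overlap, and its log2 fold change of 0.63 ± 0.18 had an adjusted p of 0.079, which passed the threshold with the DESeq2 Wald test (adjusted p = 0.032), with no filter on low counts (adjusted p = 0.045) and without empty vector replicate 2 (0.74, adjusted p = 0.043). RAB24, linked to autophagy, was at 61.1 and 55.2 CPM against 47.8 and 38.0 CPM (-0.44 ± 0.18, adjusted p = 0.22), and 58.3% of its exon bases are shared with MXD3.

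Secretory vesicle and plasma membrane RABs held 3 of the 4 calls (RAB27B and RAB13 higher, RAB27A lower), with 12 of 13 members tested and a median of 0.35, beside 3.64% called higher and 1.15% lower among all genes tested. RAB10, which serves exocytosis of transport vesicles, was at 242 and 249 CPM against 223 and 248 CPM and the groups overlapped (-0.06 ± 0.15, adjusted p = 0.90, edgeR). RAB26, a RAB of secretory granules, was at 2.99 and 1.94 CPM against 5.39 and 3.10 CPM (0.79 ± 0.36, adjusted p = 0.29), and was called without empty vector replicate 1 (adjusted p = 0.034). The remaining sets were small. Neither of the 2 cilium RABs was called, nor were the 3 tested of 4 little studied RABs.

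The 10 RAB genes under the filter had at most 10 counts in any library, reached by RAB9B in RUNX1::ERG replicate 1, and RAB3C, of the same subfamily as RAB3B, had none in any library. A difference in these genes was not detectable at this depth.

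By level per kilobase with the empty vector, the order was led by RAB1B at 132 ± 1, RAB7A at 108 ± 5, RAB13 at 85.6 ± 1.2, RAB5C at 83.1 ± 13.8, RAB10 at 68.9 ± 1.4, RAB1A at 63.6 ± 0.8 and RAB27A at 61.5 ± 24.1 CPM per kb (SD, n = 2 each). RAB13 and RAB5C lay within their spread of each other, and the spread of RAB27A covered RAB1A and RAB10 as well. With RUNX1::ERG, RAB13 stood at 132 ± 13 CPM per kb as the second most abundant, and RAB27A at 31.8 ± 2.6 had gone from rank 7 to rank 14. RAB27B moved from rank 41 to rank 37 and RAB32 from rank 21 to rank 17. Summed over the family, RAB transcripts took 0.286% and 0.272% of all counts with the empty vector and 0.309% and 0.307% with RUNX1::ERG. The family was a small part of the RNA in every library, slightly larger in both RUNX1::ERG libraries.

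**Figure D3:**
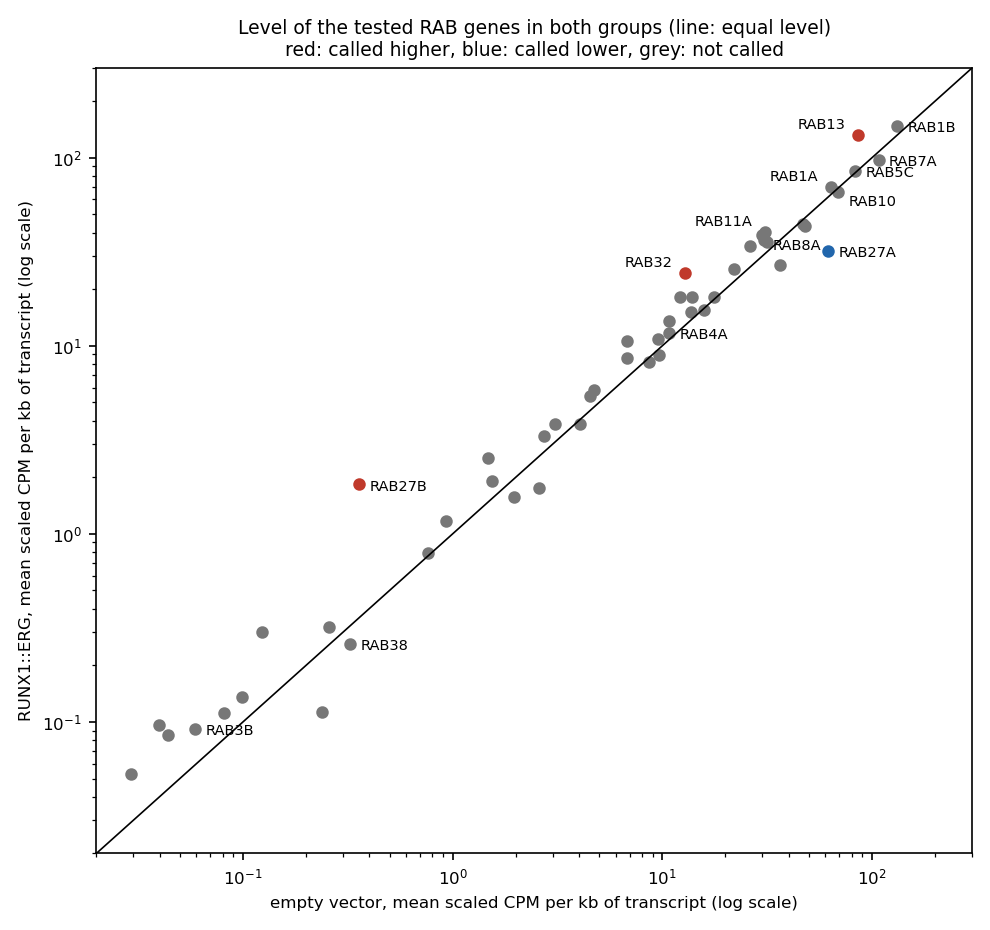
Mean scaled CPM per kb of reference transcript with the empty vector (x axis, log scale) and with RUNX1::ERG (y axis, log scale) for the 51 RAB genes tested. Most points lie close to the line of equal level, RAB27B lies farthest above it among the called genes and RAB27A below it.

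The balance within other close pairs is given for comparison. RAB1B made up 67.5% and 67.3% of the RAB1A and RAB1B sum per kb with the empty vector and 69.0% and 66.7% with RUNX1::ERG. RAB6B made up 19.3% and 16.1% of its sum with RAB6A against 21.3% and 18.0%, and RAB8B 26.2% and 22.5% of its sum with RAB8A against 20.5% and 23.4%. RAB11B took 65.2% and 56.1% of its sum with RAB11A with the empty vector and 56.2% and 47.2% with RUNX1::ERG, a difference between replicates about as large as that between groups. These shares are descriptions and were not tested.

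The proteins that act on RABs were described from lists of 144 genes, of which 128 were tested, 5 were called higher and 2 lower, with 121 not called. This too is close to the 3.64% higher and 1.15% lower of all genes. Their median log2 fold change was 0.10. Without RUNX1::ERG replicate 1, the library with the most ERG counts, none of the 7 was called by edgeR and their adjusted p ran from 0.052 for SYTL3 to 0.29 for CCZ1. Over all genes, 286 calls were left there, against 737 with all 4 libraries.

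SYTL3, a synaptotagmin-like protein that binds active RAB27, had the largest called change among them. Its level was 0.764 and 0.312 CPM with the empty vector and 2.51 and 2.80 CPM with RUNX1::ERG, without overlap. SYTL3 rose 4.96-fold (log2 fold change 2.31 ± 0.46, adjusted p = 0.018, edgeR), from 46 and 22 counts to 212 and 201. The size depended on the empty vector library used, with a log2 fold change of 3.08 without empty vector replicate 1 and 1.79 without replicate 2, both called. SYTL3 was the only call among the 8 tested of 10 RAB27 effectors, whose median was 0.35. Over all genes tested, 3.64% were called higher and 1.15% lower. SYTL4, a RAB27 effector found in platelets, was at 8.48 and 7.77 CPM against 11.3 and 12.7 CPM (0.56 ± 0.22, adjusted p = 0.20). UNC13D, the priming factor for granule release, was abundant at 325 and 310 CPM against 409 and 326 CPM (0.21 ± 0.16, adjusted p = 0.56). SYTL4 and UNC13D were chosen after their values were seen.

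BLOC-3, made of HPS1 and HPS4, is the exchange factor for RAB32 and RAB38, and loss of either subunit causes Hermansky-Pudlak syndrome, in which platelets lack dense granules. HPS1 was at 65.7 and 62.5 CPM with the empty vector and 121 and 102 CPM with RUNX1::ERG. HPS1 rose 1.74-fold (log2 fold change 0.80 ± 0.16, adjusted p = 0.020, edgeR), with 60.7% of its exon bases shared with an unnamed gene model on its strand. HPS4, named after its values were seen as the partner of HPS1, had a mean of 46.5 ± 4.9 CPM with the empty vector and 34.3 ± 0.9 CPM with RUNX1::ERG, and was not called (-0.44 ± 0.17, adjusted p = 0.20). HPS1 was the only call among the 24 tested of 25 genes for biogenesis of platelet granules and related organelles, whose median was 0.03. Over all genes tested, 3.64% were called higher and 1.15% lower. The difference between HPS1 and HPS4 was not tested.

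The other exchange factors had 1 call among them. CCZ1, which with MON1A or MON1B activates RAB7, was at 26.9 and 29.2 CPM with the empty vector and 14.6 and 17.7 CPM with RUNX1::ERG, and fell by 0.80 on the log2 scale (SE 0.19, adjusted p = 0.043, edgeR). The call was lost with library totals (-0.76, adjusted p = 0.058). Its near-identical copy CCZ1B makes the split of reads between the 2 uncertain, and CCZ1B was also lower in both RUNX1::ERG libraries (-0.54 ± 0.21, adjusted p = 0.19). Of the 30 tested of 34 exchange factors, 1 was called higher and 1 lower, with a median of 0.19. Over all genes tested, 3.64% were called higher and 1.15% lower. DENND2C, an exchange factor named after its values were seen, had a higher log2 fold change on few counts, at most 88 in a library, and was not called (2.49 ± 0.69, adjusted p = 0.069). With all 4 libraries and the filter, none of the 37 tested of 43 GAPs was called by edgeR, and their median was 0.01. By edgeR, 4 of these GAPs had an unadjusted p under 0.05, as did 2767 of all 15394 genes tested. EVI5L (1.01 ± 0.30, adjusted p = 0.088), named after its values were seen, was the only GAP called by the DESeq2 Wald test, and edgeR also called it with no filter, without RUNX1::ERG replicate 2 and without empty vector replicate 1.

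In the cycle of RABs on and off membranes, 1 of 8 genes was called higher, beside 3.64% of all genes tested. RABAC1, a membrane protein that helps release RABs from GDI, was at 16.2 and 14.6 CPM with the empty vector and 34.5 and 24.5 CPM with RUNX1::ERG, and rose 1.91-fold (log2 fold change 0.94 ± 0.21, adjusted p = 0.034, edgeR). The 2 GDI genes and the prenylation enzyme genes were not called. Among 24 tested effectors of other RABs, 2 were called higher and 1 lower, beside 3.64% higher and 1.15% lower of all genes tested. RILPL2, which binds RABs phosphorylated by LRRK2, was at 17.1 and 15.0 CPM against 31.6 and 26.0 CPM (0.85 ± 0.20, adjusted p = 0.036). OPTN, an autophagy receptor that binds RAB8, was at 67.0 and 49.9 CPM against 101 and 93.0 CPM (0.73 ± 0.18, adjusted p = 0.046). RAB11FIP1, which links RAB11 to recycling vesicles, was at 176 and 148 CPM against 88.5 and 101 CPM and fell by 0.77 on the log2 scale (SE 0.16, adjusted p = 0.024). All of these were without overlap between the groups. The call of OPTN was also lost with library totals (log2 fold change 0.77, adjusted p = 0.053) and without empty vector replicate 2 (0.53, adjusted p = 0.17).

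**Figure D4:**
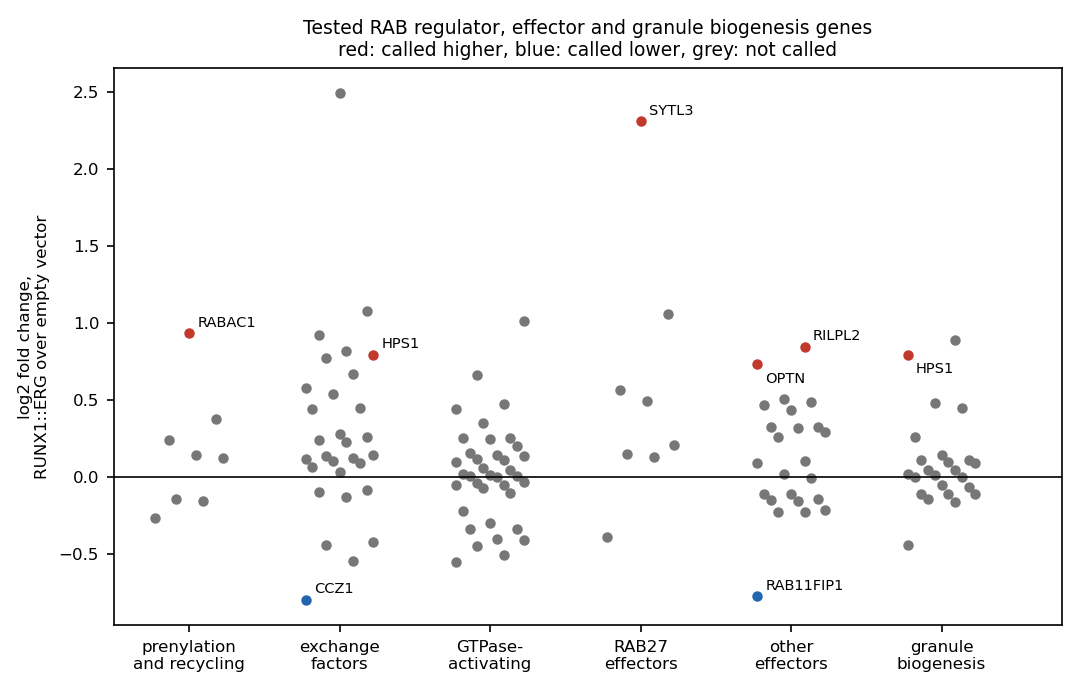
Log2 fold change (RUNX1::ERG over empty vector, y axis) of the genes tested in each list of RAB regulators and effectors (x axis), 1 point a gene, with called genes in colour and named. The 37 GAPs scatter around 0 with no call, and SYTL3 at 2.31 is the highest called point, with DENND2C, not called, above it at 2.49.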

How the data were processed

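The authors deposited counts of reads per gene, without normalization, for 4 libraries of poly(A)-enriched RNA from K562 cells. The submitters' processing notes name hg19, HISAT2 2.2.1 and featureCounts 2.0.1; the strand setting and annotation are not given in the sources used here, so overlapping genes, antisense genes and near-identical copies are uncertain. Between 66.7% and 68.9% of counts from 1 to 10 were even, so both mates of a pair may have been counted and intervals for counting error are then too narrow. NCBI gene numbers were matched to symbols in a RefSeq table of GRCh38.p14 (92.2% of 25702 genes). Positions and exon sharing are from GENCODE v44 on GRCh37, and promoters from RefSeq.

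In R 4.3.3, all 4 libraries were fitted with edgeR 4.0.16 (TMM, its filter on low counts, quasi-likelihood test, no replicate block, Benjamini-Hochberg adjustment over all genes, threshold 0.05). The standard error is the size of the log2 fold change over the square root of F. The 12 alternatives used other scalings, filters, DESeq2 1.42.0, limma 3.58.1 voom, a replicate block, halved counts and leaving out each library. In the last, the lone library of a group is assumed to vary like the other group. The test was also run on simulated data for this comparison (15158 genes). All genes had a set dispersion (spread between replicates) of 0.04, and 200 were changed before the filter. The test called 36 of 95 genes given a log2 change of 1, 97 of 99 given 2, and 2 of 14964 left unchanged.

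Named genes were the called RAB genes, the 8 platelet granule RABs, the 10 most abundant RABs, and called regulators (at most 5 per list). The members, lists and tests were chosen with earlier results of these data known. Lists of regulators, compartments and markers were written from general knowledge. Summed marker levels are given for the empty vector libraries and then for the RUNX1::ERG libraries. They were 12107 and 12739 against 14390 and 13295 CPM for 10 erythroid markers typical of K562 (1 called higher). For 6 lymphoid markers they were 34.9 and 36.2 against 22.6 and 25.0 CPM (none called). For 7 monocyte and granulocyte markers they were 8.55 and 10.6 against 23.4 and 21.1 CPM (2 called higher). For 5 fibroblast markers they were 6.19 and 6.35 against 24.8 and 22.1 CPM (1 called higher).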

Additional observations from a re-analysis of the deposited data

How the results depend on the processing

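Of the RAB genes, RAB27B alone was called under each of the 12 alternatives. Calls of lower RAB genes went from 1 to 0 with library totals and with limma voom. With a replicate block, 5 RAB genes were called higher (adding RAB29 and RAB4B) and 16 regulators and effectors (the GAP EVI5L among them); shared numbers mark no stated pairing, there are only 2 pairs (correlation of their deviations 0.27), and calls over all genes went from 737 to 1733. The regulators and effectors called were 12 with the DESeq2 Wald test and 12 with no filter, against 7. Over all genes, calls were 1204 with DESeq2 and 1500 with no filter. Leaving out each library in turn gave 1 to 3 RAB genes called higher, 0 to 2 called lower, 1 to 3 platelet granule RABs called and 0 to 13 regulators and effectors called. The lowest numbers came without RUNX1::ERG replicate 1 (286 calls over all genes). Without empty vector replicate 2, RAB29 was called higher and RAB43 was the second RAB called lower (log2 fold change -0.85, adjusted p = 0.031, edgeR); most of its exon bases are shared with ISY1-RAB43. Directions that changed all belonged to genes not called. RAB28 was at 0.0012 with library totals. When each library was left out, log2 fold changes ran from -0.15 to 0.017 for RAB10, -0.35 to 0.041 for RAB11B, -0.23 to 0.015 for RAB12, -0.17 to 0.034 for RAB20, -0.17 to 0.11 for RAB28, -0.026 to 0.10 for RAB2A, -0.16 to 0.0013 for RAB35, -0.78 to 0.023 for RAB38, -0.17 to 0.22 for RAB40B, -0.0069 to 0.29 for RAB40C, -0.098 to 0.36 for RAB4A and -0.13 to 0.21 for RAB5C. The median over the RAB genes stayed between 0.16 and 0.30. Except for the constructions themselves (fewer samples, other genes tested), the cause of these shifts was not tested. Depth limits the 10 RAB genes under the filter. In the simulation with 2 libraries per group, many log2 changes of 1 were missed. Its dispersion of 0.04 was set and not taken from these data, so that rate need not hold for the RAB genes.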
